A study of Mus musculus with 4 samples.

Results

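This account describes 40 genes that remodel the matrix around cultured mouse bone marrow stromal cells, or that hold such remodelling back, in cells with and without Asxl1. They are 15 matrix metalloproteinases (MMPs), 4 tissue inhibitors of metalloproteinases (TIMPs), 10 ADAMTS proteases, 7 ADAM proteases, the plasminogen activators Plau and Plat, the receptor Plaur and the membrane-anchored inhibitor Reck. The genes were chosen by name, and all 40 had exactly 1 row among the 24487 rows of the deposited expression table. Of these, 35 averaged 1 FPKM or more across the 4 libraries and were tested, and 5 (Mmp8, Mmp10, Mmp17, Mmp24 and Timp4) lay under that limit. FPKM are fragments per kilobase of transcript scaled to the mapped fragments of the library, so levels can be compared between genes. Comparing them between libraries further assumes that the libraries have a similar make-up.

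RNA was sequenced from mesenchymal stem/progenitor cells (MSPCs), the adherent stromal cells that grow out of bone marrow, of C57BL/6 background. The groups were wild type (WT, 2 libraries) and Asxl1-/- (2 libraries). Asxl1 encodes a chromatin regulator that binds the BAP1 deubiquitinase, and the series asks how its loss alters the self-renewal and fate of stromal cells. All cultures were at passage 5 to 10 in MesenCult medium with 20% supplement, replated at 80 to 90% confluency. The labels do not say how the Asxl1 alleles were made, in which cells they were lost, or whether the replicates are different animals. The p-values therefore reflect no more than the spread among these libraries, which may be technical.

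Matrix metalloproteinases are zinc enzymes that are made as inactive precursors and together can cut every major matrix protein. Membrane-type MMPs sit on the cell surface, where MMP14 activates the MMP2 precursor with the help of TIMP2. ADAMTS proteases are secreted and cut proteoglycans or trim procollagens, and ADAM proteases are mostly membrane enzymes that shed growth factors, cytokines and receptors from the cell surface. The urokinase Plau, bound to its receptor Plaur, and the tissue-type activator Plat turn plasminogen into plasmin, which degrades fibrin and activates several MMP precursors. In bone marrow stroma these enzymes are known for collagen turnover and for their part in bone remodelling.

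Asxl1 stood at 14.6 and 11.2 FPKM in WT and at 0.273 and 0.312 FPKM in Asxl1-/-, in keeping with the genotype labels. FPKM summed to 497340 to 703730 per library, and 10951 to 11363 rows reached 1 FPKM. Rows under 300 bp held 40.9% of the sum in WT replicate 2 and 21.4% to 24.9% in the other libraries. The number of reads is unknown. The commonest ratio between low FPKM values put the depth of the other libraries at 0.956 to 1.03 times that of WT replicate 1. This is a rough estimate, because only ratios near equality were considered. The commonest ratio was held by 119 to 219 of 823 to 840 genes low in both libraries. Stromal markers were present, with Col1a1 at 1298 to 2043 FPKM in the 4 libraries, although Lepr, a marker of marrow stroma in the animal, did not exceed 0.0426 FPKM and Pdgfra stood at 4.78 FPKM in WT replicate 2 against 58.8 to 80.9 in the other 3. Of 13 tested stromal markers, none passed the adjusted limma threshold, while 5 lay lower in Asxl1-/- without overlap (Nt5e, Col1a2, Cd44, Vcam1 and Eng) and 2 higher (Cxcl12 and Pdgfrb), against 25.2% and 15.6% of all genes tested. Nt5e stood at 2.31 and 7.19 FPKM in WT and at 0.493 and 0.507 FPKM in Asxl1-/-, and Eng at 10.7 FPKM in WT replicate 1 and 0.571 to 0.912 FPKM in the other libraries. The part of these markers' cells in the levels of the 40 genes was not tested. Most macrophage markers did not follow the genotype. Without Fcer1g, which alone stood at 72.2 FPKM in Asxl1-/- replicate 1, the other 14 markers summed to 7.48 and 550.2 FPKM in WT replicates 1 and 2 and to 15.1 and 376.8 FPKM in Asxl1-/- replicates 1 and 2, and for 12 of the 14 each replicate 2 exceeded each replicate 1. The exceptions were Cd53 and Aif1. Cd53 lay higher in Asxl1-/- without overlap, at 0.117 and 3.43 FPKM in WT and 5.82 and 8.37 FPKM in Asxl1-/-. Aif1 was highest in Asxl1-/- replicate 1, at 0.572 FPKM. Replicate numbers only name the libraries. None of the 10 neutrophil markers reached 1 FPKM in any library. Of 8 osteoclast markers, Dcstamp, Ocstamp and Calcr were listed at 0 in all 4 libraries, while Nfatc1 stood at 4.45 to 6.22 FPKM and Itgb3 at 1.298 to 5.26 FPKM, Atp6v0d2 reached 2.07 FPKM in Asxl1-/- replicate 2 and Acp5 1.15 FPKM in WT replicate 2. In bulk RNA, fewer cells of a type and less RNA per cell cannot be told apart.

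RefSeq sequences upstream of the gene start (build GRCm38.p6, the same assembly as mm10) were found for 25 of the 40 genes. They are shown for 4 of the 5 genes of this set in an MMP cluster on chromosome 9, Mmp13, Mmp3, Mmp10 and Mmp12, whose levels differed widely between libraries. Mmp8 of the same cluster has a sequence too and is not shown. They are also shown for Plaur, which lay lower in both Asxl1-/- libraries, and for Mmp11 and Timp3, which lay higher. Each run gives the 120 bases before the start, 5′ to 3′ on the strand of the gene. Capitals mark TGAGTCA, the core binding site of the AP-1 factors Fos and Jun, and GGGCGG, the GC box bound by Sp1, on either strand, so that TGACTCA and CCGCCC are their reverse complements.
Mmp13, chr9:7272394-7272513, plus strand: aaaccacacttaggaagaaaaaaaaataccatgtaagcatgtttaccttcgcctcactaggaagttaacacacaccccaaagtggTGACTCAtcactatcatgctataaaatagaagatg
Mmp3, chr9:7445702-7445821, plus strand: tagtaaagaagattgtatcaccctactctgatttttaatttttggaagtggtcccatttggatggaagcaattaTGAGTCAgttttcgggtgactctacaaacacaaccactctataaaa
Mmp10, chr9:7502222-7502341, plus strand: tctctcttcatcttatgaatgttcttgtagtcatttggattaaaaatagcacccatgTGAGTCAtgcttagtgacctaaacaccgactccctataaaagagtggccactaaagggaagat
Mmp12, chr9:7347254-7347373, plus strand: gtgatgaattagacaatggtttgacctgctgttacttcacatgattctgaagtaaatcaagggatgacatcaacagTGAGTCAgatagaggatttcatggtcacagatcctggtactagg
Plaur, chr7:24462363-24462482, plus strand: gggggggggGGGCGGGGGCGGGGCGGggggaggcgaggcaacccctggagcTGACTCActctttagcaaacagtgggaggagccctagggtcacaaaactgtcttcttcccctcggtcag
Mmp11, chr10:75932503-75932622, minus strand: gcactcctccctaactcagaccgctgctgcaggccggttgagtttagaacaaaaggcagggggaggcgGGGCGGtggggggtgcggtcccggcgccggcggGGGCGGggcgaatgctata
Timp3, chr10:86300292-86300411, plus strand: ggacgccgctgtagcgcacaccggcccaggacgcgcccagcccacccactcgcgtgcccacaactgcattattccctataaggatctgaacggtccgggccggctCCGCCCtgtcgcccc

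The TGAGTCA motif began 35 bases before the start of Mmp13, 46 before that of Mmp3, 63 before that of Mmp10, 44 before that of Mmp12 and 69 before that of Plaur. Another listed start of Mmp12, further upstream, lacks the motif in its 250 bases, and so does the start of Mmp8. The motif lay in the 250 bases upstream of 6 of 29 listed starts of the 40 genes (20.7%), and of 4.46% of all 32851 starts in the RefSeq table. Most of the 6 belong to the chromosome 9 cluster (Mmp13, Mmp3, Mmp10 and Mmp12), and outside it only Plaur and an inner start of Adam19 carry the motif. Among starts of tested genes the share was 3.23%. GGGCGG lay upstream of 16 of the 29 (55.2%), of 32.7% of all starts and of 59.0% of the starts of tested genes. A match is a description of the letters and no evidence of binding.

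Of the 35 tested genes, 0 rose and 0 fell in Asxl1-/- at a limma p adjusted over all 11485 genes tested, where 0.0% of genes rose and 0.0261% fell. The adjusted p of the 35 ran from 0.383 for Mmp16 to 0.996 for Mmp3. At an unadjusted limma p under 0.05, 4 lay higher (Mmp11, Adam12, Adam19 and Adamts15) and 3 lower (Mmp16, Plaur and Mmp9), where 2.51% of all genes tested lay higher and 5.41% lower. Both Asxl1-/- libraries stood above both WT libraries for 10 of the 35 (28.6%) and below them for 4 (11.4%), against 15.6% and 25.2% of all genes tested, and for 21 the groups overlapped. The median difference of the 35 on the log2(FPKM + 1) scale, Asxl1-/- minus WT, was 0.15, beside -0.07 over all genes tested. In the authors' deposited table, which tested 37 of the 40 genes, 1 was called lower (Mmp16) and 0 higher, where 0.396% and 0.543% of all genes tested there were called lower and higher.

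**Figure D1:**
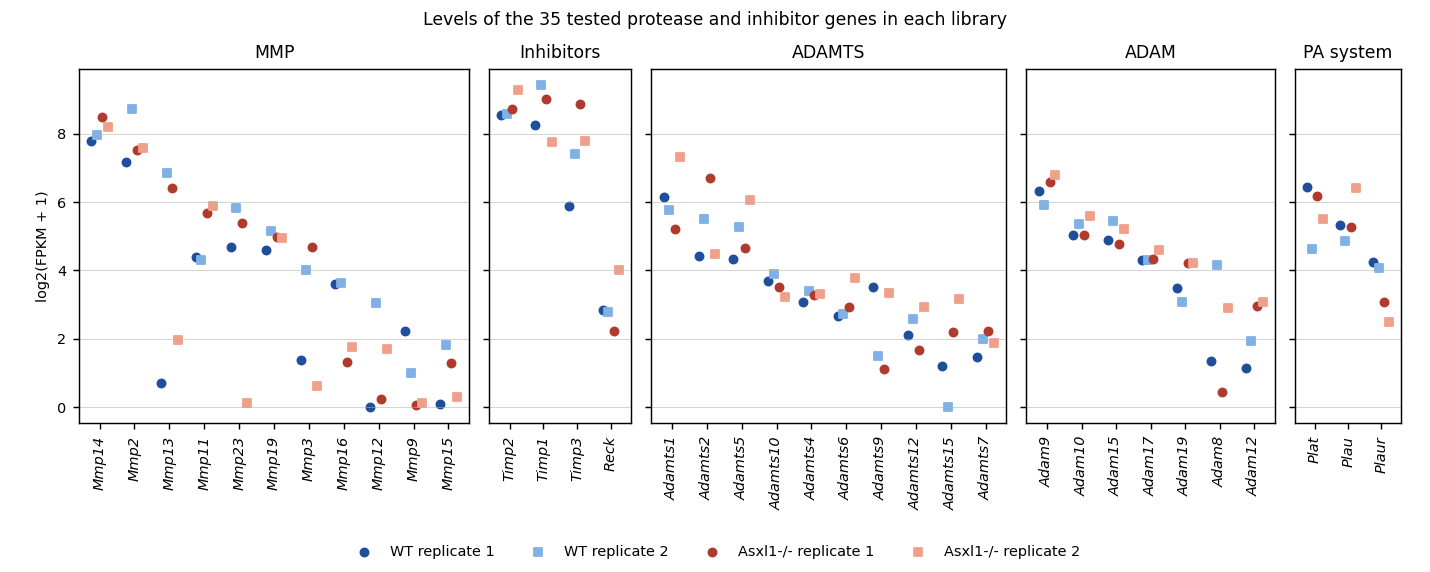
Level of each of the 35 tested genes as log2(FPKM + 1) (vertical axis) in each of the 4 libraries (1 point per library), by family and in order of mean level; "PA system" holds the plasminogen activators and Plaur. Mmp14, Mmp2 and the 3 TIMPs stand highest, and Mmp13, Mmp23 and Mmp3 show the widest gaps between libraries of the same genotype.

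Many of these genes differed between libraries of the same genotype. Between the 2 WT libraries, 14 of the 35 (40%) differed by more than 1 on the log2(FPKM + 1) scale, and between the 2 Asxl1-/- libraries also 14 (40%), against 13.5% and 11.2% of all genes tested. The median size of the difference was 0.54 between the WT libraries and 0.66 between the Asxl1-/- libraries, beside 0.38 and 0.31 for all genes tested. These shares describe the chosen genes and were not tested.

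The membrane-type MMPs held the gene with the smallest p. Mmp16 (chr4:17853482-18118734 in mm10), which encodes a membrane-type enzyme that can activate the MMP2 precursor, stood at 11.2 and 11.5 FPKM in WT and at 1.48 and 2.35 FPKM in Asxl1-/-. The replicates of each group lay close together and far from the other group, with means of 11.4 ± 0.181 and 1.92 ± 0.614 FPKM (SD, n = 2 each). The difference was -2.10 on the log2(FPKM + 1) scale with a standard error of 0.28 (limma adjusted p = 0.383), and it ran from -2.32 to -1.88 with 1 library left out. In the authors' deposited table the group values were 13.2 and 2.41 FPKM, the log2 fold change was -2.45 and q was 0.0452.

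Mmp14, the main collagen-cutting enzyme of the stromal cell surface, was the MMP with the highest mean over the WT libraries after Mmp2, and with the highest mean over the Asxl1-/- libraries. It stood at 219.5 and 250.3 FPKM in WT and at 355.8 and 293.2 FPKM in Asxl1-/-. The groups did not overlap, but the difference of 0.46 (standard error 0.26) had a limma adjusted p of 0.685. Mmp15, a further transmembrane member, stood at 0.0746 and 2.55 FPKM in WT and at 1.45 and 0.224 FPKM in Asxl1-/-, so the genotypes overlapped. Mmp17, which is anchored to the membrane by a lipid, ranged from 0.113 to 1.02 FPKM, and Mmp24 from 0.0485 to 0.0926 FPKM. Both stayed under the limit for testing.

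The gelatinases Mmp2 and Mmp9 cut denatured collagen and the collagen IV of basement membranes. Mmp2 stood at 142.1 and 420.8 FPKM in WT and at 183.9 and 191.2 FPKM in Asxl1-/-. Both Asxl1-/- values lay between the 2 WT values, and the difference of -0.38 (standard error 0.56) turned to 0.40 without WT replicate 2. Mmp9, made by macrophages, neutrophils and osteoclasts as well as by stromal cells, was far less abundant. It stood at 3.72 and 0.990 FPKM in WT and at 0.0498 and 0.0805 FPKM in Asxl1-/-. Each Asxl1-/- value was lower than each WT value, with a difference of -1.52 (standard error 0.57, limma adjusted p = 0.627). The highest Mmp9 value came from WT replicate 1, where the 14 macrophage markers without Fcer1g summed to 7.48 FPKM, the lowest sum of the 4 libraries. The part of macrophages or other cell types in the Mmp9 levels was not tested.

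Among the stromelysins, the groups lay apart for Mmp11 and overlapped for Mmp3 and Mmp10. Mmp11 (chr10:75923224-75932463), which is activated inside the cell by furin and is known from fibroblasts of remodelling tissue, stood at 20.1 and 18.6 FPKM in WT and at 50.1 and 57.8 FPKM in Asxl1-/-. Its groups lay apart, with means of 19.3 ± 1.03 and 54.0 ± 5.41 FPKM (SD, n = 2 each), a ratio of 2.79. The difference of 1.43 had a standard error of 0.23 (limma adjusted p = 0.473) and ran from 1.33 to 1.53 with 1 library left out. In the authors' deposited table the log2 fold change was 1.60 with q = 0.0758, not called.

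Mmp13, Mmp3 and Mmp10 lie in a cluster of 10 MMP genes within 427 kb of chromosome 9. They are not adjacent: Mmp12 and Mmp1b lie between Mmp13 and Mmp3, and Mmp1a between Mmp3 and Mmp10. Mmp13 (chr9:7272514-7283333), the main interstitial collagenase of the mouse, stood at 0.633 and 114.9 FPKM in WT and at 84.6 and 2.89 FPKM in Asxl1-/-. The values thus differed 181-fold between the WT libraries and 29.3-fold between the Asxl1-/- libraries, and the genotype difference of 0.41 had a standard error of 2.52 (limma adjusted p = 0.978). Without WT replicate 1 it was -2.67, and without WT replicate 2 it was 3.48. Mmp3, stromelysin 1, which activates other MMP precursors, stood at 1.59 and 15.2 FPKM in WT and at 24.8 and 0.529 FPKM in Asxl1-/-. The same libraries, WT replicate 2 and Asxl1-/- replicate 1, held its 2 highest values. Mmp10, stromelysin 2, was low throughout, at 0.0252 and 0.332 FPKM in WT and at 0.733 and 0.290 FPKM in Asxl1-/-, and was highest in these libraries too.

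The collagenase Mmp8, best known from neutrophils, reached at most 0.0990 FPKM and was listed at 0 in WT replicate 1. The 5 genes of the cluster outside the set (Mmp1a, Mmp1b, Mmp7, Mmp20 and Mmp27) stayed at or below 0.799 FPKM. Dcun1d5, the gene next to Mmp13 outside the cluster, stood at 29.2 and 33.7 FPKM in WT and at 42.0 and 24.5 FPKM in Asxl1-/-. All tested genes of chromosome 9 had a median of -0.25 and 0.30 in WT replicates 1 and 2 and of 0.04 and -0.11 in Asxl1-/- replicates 1 and 2, as log2 differences from the mean of the 4 libraries. These medians have the same sign as the deviations of Mmp13 in each library and are far smaller than the gaps in Mmp13. With the chromosome medians removed, the Mmp13 difference was 0.47 and that of Mmp3 0.02. The medians of chromosome 10, which holds Mmp11 and Timp3, lay higher in both Asxl1-/- libraries. They were -0.29 and -0.03 in WT and 0.04 and 0.24 in Asxl1-/-. With the chromosome medians removed, the difference was 1.125 instead of 1.43 for Mmp11 and 1.36 instead of 1.67 for Timp3. That of Mmp16 on chromosome 4 was -1.86 instead of -2.10. Mmp13, Mmp3 and Mmp10 each carry the TGAGTCA motif shown above, and so do Mmp12 and Plaur. Mmp8 lacks it, although its highest values, 0.0518 and 0.0990 FPKM, came from WT replicate 2 and Asxl1-/- replicate 1 as well. The part of the motif, or of the chromosome, in these levels was not tested.

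Mmp12, the metalloelastase named after macrophages, was high in another pair of libraries. It stood at 0.0112 and 7.31 FPKM in WT and at 0.174 and 2.26 FPKM in Asxl1-/-. Adam8, a membrane protease of leukocytes, stood at 1.54 and 16.7 FPKM in WT and at 0.366 and 6.41 FPKM in Asxl1-/-. For both genes WT replicate 2 was highest and Asxl1-/- replicate 2 next, the order of the summed macrophage markers, such as Lyz2 at 399.9 FPKM in WT replicate 2 and 293.4 FPKM in Asxl1-/- replicate 2 against 2.85 and 2.36 FPKM in the replicates 1. The part of these cells in the levels of Mmp12 and Adam8 was not tested. The genotype differences were -0.57 (standard error 1.17) for Mmp12 and -1.07 (standard error 1.25) for Adam8, with limma adjusted p of 0.915 and 0.848. Without WT replicate 2 they turned to 0.95 and 0.33, and without Asxl1-/- replicate 1 to 0.17 and 0.15. Of the exon bases of Mmp12, 157 (3.94%) overlap Mmp1b on the other strand in the GENCODE annotation, and the strandedness of the libraries is not given in the sources used here.

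**Figure D2:**
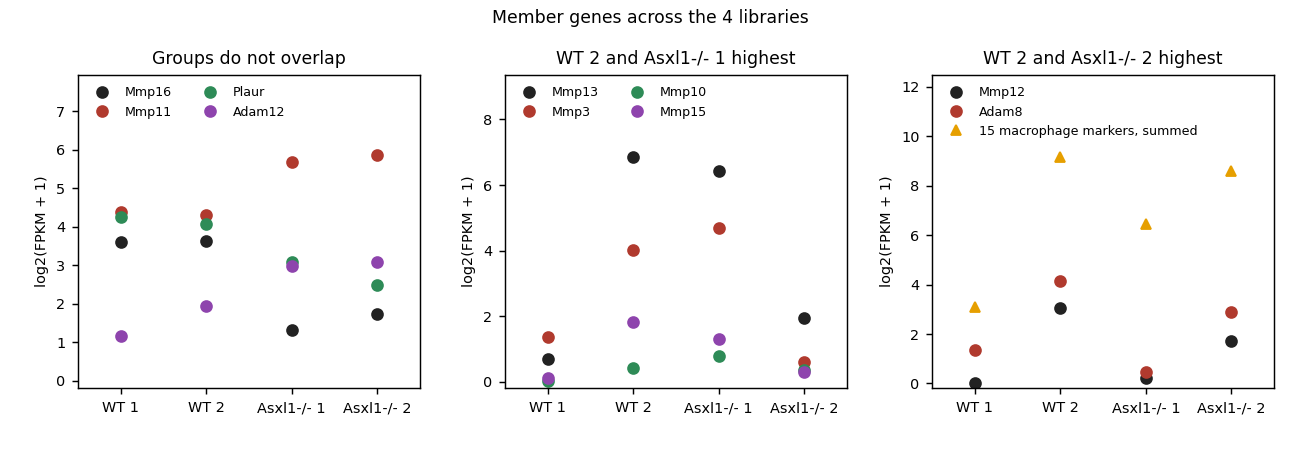
Levels of member genes as log2(FPKM + 1) (vertical axes) in the 4 libraries (horizontal axes), 1 point per gene and library. Left, 4 genes whose groups do not overlap, such as Mmp16 at 11.2 and 11.5 FPKM against 1.48 and 2.35; middle, Mmp13, Mmp3, Mmp10 and Mmp15, highest in WT replicate 2 and Asxl1-/- replicate 1; right, Mmp12 and Adam8 with the summed FPKM of the 15 macrophage markers (triangles), highest in both replicates 2.

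Of the remaining MMPs, Mmp19, a secreted enzyme of resting tissues, was even across the libraries at 23.3 and 34.3 FPKM in WT and 30.8 and 29.6 FPKM in Asxl1-/-. Exons of Tmem198b on the opposite strand share 22.8% of its exon bases, so reads of both genes cannot be told apart without strand. Mmp23, a small membrane-bound member released by its own processing, stood at 24.6 and 55.4 FPKM in WT and at 41.3 and 0.0987 FPKM in Asxl1-/-. A single library, Asxl1-/- replicate 2, was low, and the difference of -2.48 (standard error 1.79, limma adjusted p = 0.752) turned to 0.15 without it.

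Timp1, Timp2 and Timp3 were among the most abundant of the 40 genes, whereas Reck was modest and Timp4 close to 0. Timp3 (chr10:86300412-86349505), which binds to the matrix and blocks ADAM17 and the aggrecanases as well as MMPs, stood at 58.1 and 169.7 FPKM in WT and at 464.8 and 218.4 FPKM in Asxl1-/-. Each Asxl1-/- value was higher than each WT value, with means of 113.9 ± 78.9 and 341.6 ± 174.2 FPKM (SD, n = 2 each). The difference was 1.67 with a standard error of 0.66 (limma adjusted p = 0.632), and between 0.91 and 2.44 with 1 library left out. Timp3 lies inside an intron of Syn3, on the other strand, and shares no exon base with it.

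Timp2, which blocks MMP2 and also takes part in its activation by MMP14, stood at 369.7 and 378.2 FPKM in WT and at 419.9 and 622.5 FPKM in Asxl1-/-. The groups did not overlap, and the difference was 0.45 (standard error 0.30, limma adjusted p = 0.731). Timp1, a soluble inhibitor that binds the MMP9 precursor, stood at 302.0 and 689.6 FPKM in WT and at 518.2 and 214.2 FPKM in Asxl1-/-. It was highest in WT replicate 2 and Asxl1-/- replicate 1, like Mmp13. Timp4 did not exceed 0.192 FPKM and was listed at 0 in 1 library of each group. Reck, the inhibitor that is anchored to the membrane, stood at 6.17 and 5.84 FPKM in WT and at 3.71 and 15.2 FPKM in Asxl1-/-, so that both extremes were Asxl1-/- libraries.

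Summed over the family, the 15 MMPs reached 447.3 and 933.3 FPKM in WT and 775.6 and 581.1 FPKM in Asxl1-/-. Mmp2 and Mmp14 together made up 69.6% to 83.4% of that sum in each library. The 4 TIMPs summed to 730.0 and 1237 FPKM in WT and to 1403 and 1055 FPKM in Asxl1-/-. TIMP levels therefore exceeded MMP levels in every library, by 1.63 and 1.33 times in WT and by 1.81 and 1.82 times in Asxl1-/-. The groups did not overlap in this ratio. With 2 libraries against 2 no exact permutation test can pass the threshold, and none was run.

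**Figure D3:**
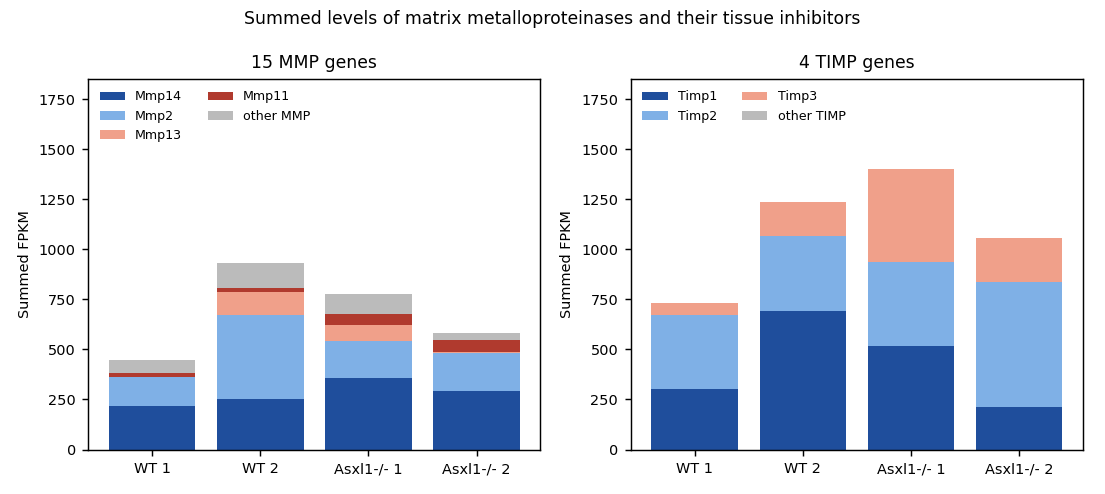
Summed FPKM (vertical axes, from 0) of the 15 MMP genes (left) and the 4 TIMP genes (right) in each library, with the most abundant genes as coloured segments and the others in grey. WT replicate 1 has the lowest sums, at 447.3 FPKM for MMPs and 730.0 FPKM for TIMPs, and Mmp13 is a wide segment in WT replicate 2 and Asxl1-/- replicate 1 and hardly visible in the other libraries.

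ADAMTS proteases that cut proteoglycans such as aggrecan and versican were expressed at moderate levels. Adamts15 was the member of this group with the smallest p. It stood at 1.29 FPKM in WT replicate 1, was listed at 0 in WT replicate 2, and stood at 3.63 and 7.92 FPKM in Asxl1-/-. Both Asxl1-/- values were above both WT values, and the difference was 2.09 with a standard error of 0.59 (limma adjusted p = 0.558).

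Adamts1, a versican-cutting enzyme, stood at 70.1 and 53.4 FPKM in WT and at 35.9 and 159.0 FPKM in Asxl1-/-. Adamts5, the main aggrecanase of the mouse, lies next to Adamts1 on chromosome 16 and stood at 19.2 and 37.8 FPKM in WT and at 24.0 and 65.2 FPKM in Asxl1-/-. Asxl1-/- replicate 2 held the highest value of both neighbours, and without it their differences turned from 0.30 to -0.75 and from 0.54 to -0.16. Adamts4, another aggrecanase, was even at 7.42 and 9.48 FPKM in WT and 8.79 and 8.96 FPKM in Asxl1-/-. Adamts9 stood at 10.4 and 1.81 FPKM in WT and at 1.17 and 9.07 FPKM in Asxl1-/-, high in 1 library of each genotype.

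Adamts2, which removes the amino-terminal propeptide of fibrillar procollagens, stood at 20.4 and 44.6 FPKM in WT and at 103.7 and 21.5 FPKM in Asxl1-/-. One library, Asxl1-/- replicate 1, set the difference of 0.64 (standard error 0.84, limma adjusted p = 0.870), which was -0.47 without it. Adamts6 stood at 5.32 and 5.63 FPKM in WT and at 6.70 and 12.7 FPKM in Asxl1-/-, with no overlap (difference 0.67, standard error 0.35, limma adjusted p = 0.672). Adamts10, known for its tie to fibrillin microfibrils, stood at 11.8 and 13.7 FPKM in WT and at 10.4 and 8.26 FPKM in Asxl1-/-. It was the single ADAMTS gene of the 10 with both Asxl1-/- libraries below both WT libraries, by -0.42 (standard error 0.24, limma adjusted p = 0.697). Adamts7 stood at 1.762 and 3.004 FPKM in WT and at 3.71 and 2.677 FPKM in Asxl1-/-. Adamts12 stood at 3.292 and 4.997 FPKM in WT and at 2.197 and 6.58 FPKM in Asxl1-/-. Both had groups that overlapped.

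Of the 7 ADAM genes, 4 had both Asxl1-/- libraries above both WT libraries and none had both below, where 15.6% and 25.2% of all genes tested did so. Adam12 (chr7:133883199-134225097), meltrin alpha, a protease of mesenchymal progenitors that can cut insulin-like growth factor binding proteins, stood at 1.23 and 2.86 FPKM in WT and at 6.84 and 7.50 FPKM in Asxl1-/-. Its means were 2.04 ± 1.15 and 7.17 ± 0.470 FPKM (SD, n = 2 each), a ratio of 3.51. The difference was 1.48 with a standard error of 0.36 (limma adjusted p = 0.539). In the authors' deposited table the log2 fold change was 1.91 with q = 0.0957, not called.

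Adam19 (chr11:46054502-46147347), meltrin beta, which sheds neuregulins, stood at 10.2 and 7.37 FPKM in WT and at 17.7 and 17.5 FPKM in Asxl1-/-. The Asxl1-/- libraries were nearly equal, and the difference was 0.95 (standard error 0.25, limma adjusted p = 0.553). Antisense transcripts cover 9.20% and 7.52% of its exon bases. Adam9 stood at 79.0 and 59.9 FPKM in WT and at 94.9 and 109.9 FPKM in Asxl1-/- (difference 0.56, standard error 0.27, limma adjusted p = 0.636).

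The sheddases Adam10 and Adam17 were nearly level. Adam17, which releases tumour necrosis factor and ligands of the EGF receptor, stood at 18.8 and 18.9 FPKM in WT and at 19.2 and 23.0 FPKM in Asxl1-/-. Its groups did not overlap, yet the difference was only 0.15 (standard error 0.23). Adam10, which cuts Notch receptors, stood at 31.7 and 40.01 FPKM in WT and at 31.8 and 47.5 FPKM in Asxl1-/-. Adam15 stood at 28.72 and 42.64 FPKM in WT and at 26.31 and 36.15 FPKM in Asxl1-/-, with overlap, and an antisense gene covers 24.7% of its exon bases.

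**Figure D4:**
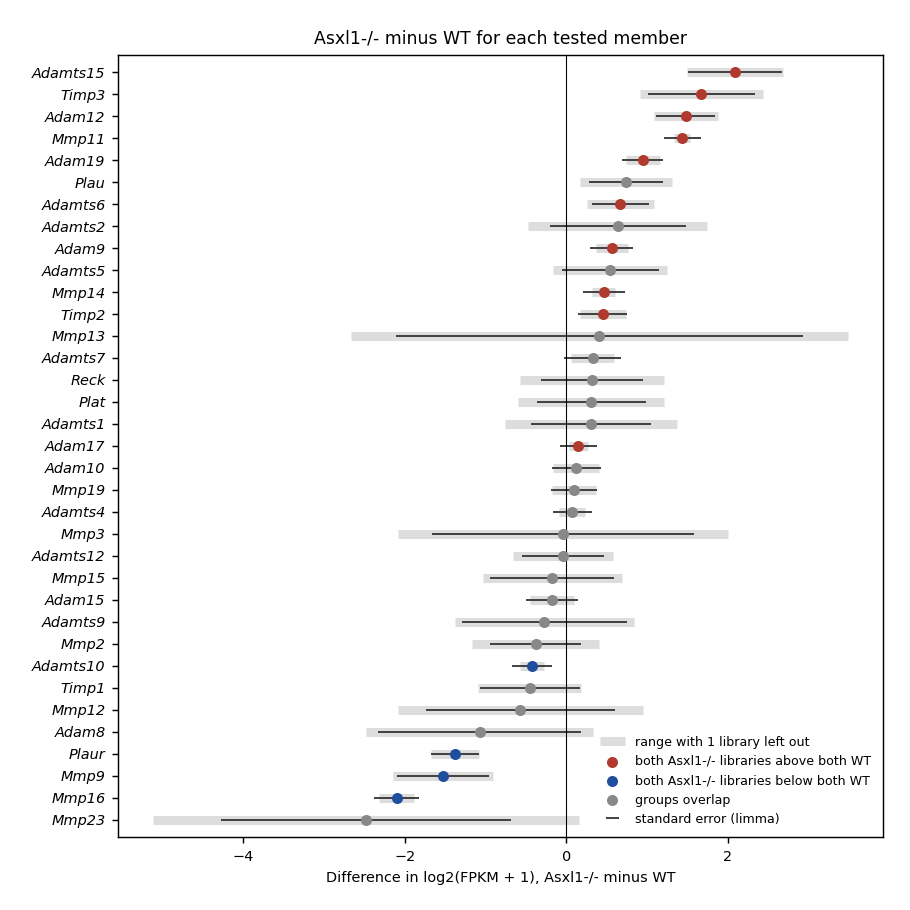
Difference in log2(FPKM + 1), Asxl1-/- minus WT (horizontal axis), for the 35 tested genes in order of size, with the limma standard error (thin line) and the range over the 4 fits that leave out 1 library (grey bar). Red marks the 10 genes with both Asxl1-/- libraries above both WT libraries, blue the 4 with both below, and grey points the 21 whose groups overlap; Mmp13 and Mmp23 have the widest grey bars.

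Of the 3 plasminogen activation genes, the receptor gene alone had groups without overlap. Plaur (chr7:24462500-24475873), the urokinase receptor, stood at 18.0 and 15.8 FPKM in WT and at 7.47 and 4.62 FPKM in Asxl1-/-. Each Asxl1-/- value was lower than each WT value, with means of 16.9 ± 1.57 and 6.05 ± 2.02 FPKM (SD, n = 2 each). The difference was -1.37 with a standard error of 0.30 (limma adjusted p = 0.503), and it ran from -1.67 to -1.08 with 1 library left out. Plau stood at 39.6 and 27.8 FPKM in WT and at 37.4 and 83.5 FPKM in Asxl1-/-, and Plat at 85.4 and 23.6 FPKM in WT and at 70.7 and 44.5 FPKM in Asxl1-/-. Their groups overlapped.

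Partners of these enzymes were read from further lists, in each of which 0 genes rose and 0 fell at an adjusted limma p under 0.05. Of 15 inhibitors and partners of the plasminogen system, 11 were tested, with 3 non-overlapping higher and 1 lower. For these and the following lists, the shares over all genes tested are 15.6% higher and 25.2% lower. S100a10, a subunit of a cell surface plasminogen receptor, stood at 481.8 and 299.1 FPKM in WT and at 187.2 and 149.0 FPKM in Asxl1-/- (difference -1.18, standard error 0.34, limma adjusted p = 0.562). The other plasminogen receptor gene Plgrkt stood at 27.6 and 31.0 FPKM in WT and at 37.3 and 39.0 FPKM in Asxl1-/-. Plasminogen itself (Plg) was listed at 0 in all 4 libraries.

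Cell surface and secreted peptidases other than these families had 12 tested genes of 16, with 3 non-overlapping higher and 3 lower, the latter close to the 25.2% of all genes tested. Prss23, a secreted serine protease, stood at 24.9 and 14.3 FPKM in WT and at 74.7 and 63.5 FPKM in Asxl1-/- (difference 1.81, standard error 0.34, limma adjusted p = 0.503). Anpep (CD13) stood at 28.8 and 6.22 FPKM in WT and at 0.230 and 5.20 FPKM in Asxl1-/-. Masp1, a protease of the lectin pathway of complement, stood at 24.1 and 65.3 FPKM in WT and at 21.5 and 7.47 FPKM in Asxl1-/-. The peptidase Mme had the smallest p of the list, with a difference of -4.69 (standard error 0.85, limma adjusted p = 0.489).

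Among ADAMTS-like genes, which lack the protease domain, 5 of 8 symbols were tested. Adamtsl4 stood at 14.1 and 34.6 FPKM in WT and at 7.68 and 9.63 FPKM in Asxl1-/-, and Adamtsl1 at 3.22 and 1.35 FPKM in WT and at 0.0241 and 0.441 FPKM in Asxl1-/-, both without overlap. Adamtsl5 went the other way, at 1.48 and 6.86 FPKM in WT and 9.16 and 18.8 FPKM in Asxl1-/-. Of 24 further MMP, ADAM and ADAMTS genes only 4 passed the limit for testing. One of these, the epidermal MMP gene Mmp28, stood at 2.15 and 1.84 FPKM in WT and at 4.05 and 6.95 FPKM in Asxl1-/- (difference 1.08, standard error 0.34, limma adjusted p = 0.581).

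Further lists held enzymes and partners that activate or steer the proteases. Furin, the convertase that activates MMP14, MMP11 and many ADAM precursors, stood at 16.1 and 17.7 FPKM in WT and at 18.5 and 22.4 FPKM in Asxl1-/-, the 1 non-overlapping gene of 4 tested convertases. Among the iRhoms and tetraspanins that guide ADAM17 and ADAM10, Rhbdf1 stood at 12.2 and 17.8 FPKM in WT and at 20.1 FPKM in both Asxl1-/- libraries, and Tspan17 at 11.8 and 11.8 FPKM in WT and at 18.0 and 15.8 FPKM in Asxl1-/-, the 2 non-overlapping genes of 6 tested. Of 14 tested cathepsin and cystatin genes, Ctsf lay lower (8.71 and 16.6 FPKM against 8.40 and 3.47) and Cstb higher (245.5 and 178.1 FPKM against 251.4 and 254.4) without overlap. None of the 3 tested procollagen processing genes was free of overlap, with Bmp1, the procollagen C-proteinase, at 37.9 and 66.7 FPKM in WT and 139.1 and 56.5 FPKM in Asxl1-/-.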

How the data were processed

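RNA of 4 libraries (2 WT, 2 Asxl1-/-) was analysed from the deposited tables. Per the submitters' processing notes, the authors worked on mm10 with TopHat2 2.0.3, Cufflinks 2.2.1 and Cuffdiff. Annotation and strandedness: not given in the sources used here. Per the file headers, the deposited FPKM are Cufflinks values, 1 column per library. The authors' Cuffdiff table gives group FPKM, a log2 fold change, and a deposited p-value and q-value. A further 2 per-sample columns of the FPKM table fit no label and were left out, as was a deposited log copy.

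FPKM are not counts, so log2(FPKM + 1) was fitted with limma (version 3.58.1, R 4.3.3; eBayes with a variance trend, two-sided) over the 11485 rows with a mean of at least 1 FPKM, with Benjamini-Hochberg adjustment over all of them at 0.05. Differences are Asxl1-/- minus WT and understate changes of low genes. The fit was tested on simulated data with the spread between these replicates. There, 21% of well expressed genes changed by 2 on the log2 scale were called, and 62% of those changed by 3. A gene that was not called may therefore still differ. Groups come from the genotype label, and replicates are numbered in accession order, which pairs nothing. Starts are the file's plus 1. Exon overlaps were computed from GENCODE vM21.

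By the naming rule, every tested gene of the 40 is given by its libraries, with statistics for those with an unadjusted p under 0.05, a call by the authors or the smallest p of their role, and each further list gives up to 4 genes with the smallest p, of which 1 is not reported here. Statistics for other members, and Dcun1d5, Plg and single markers, were added after values were seen. The 40 genes, the lists and the alternatives were chosen with earlier results of these data known. The 15 alternatives changed the pseudocount (0.1 or 0.5), the filter (none, or 5 FPKM), the scaling (median ratio or quantile), the eBayes options (no trend, or robust), dropped each library or the rows under 300 bp, removed chromosome medians, or took the macrophage markers as a covariate. Tables and figures were made in Python (3.11.15).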

Additional observations from a re-analysis of the deposited data

How the results depend on the processing

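No gene of the 40 passed the adjusted limma threshold under any of the 15 alternatives that tested it (smallest adjusted p 0.308). Over all genes tested, 0 rose and 3 fell; with no filter 1 fell, without rows under 300 bp 0 fell, and with 1 library left out 0 to 4 rose and 1 to 6 fell. With 1 library left out the genes of the set free of overlap numbered 12 to 20 higher and 6 to 14 lower, beside 10 and 4, since fewer libraries overlap less often, and their median difference ran from 0.06 to 0.37. Such a fit leaves 1 library in a group, which is assumed to vary like the other group.

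Mmp9, Mmp12, Mmp15, Adam12, Adamts7, Adamts12 and Adamts15 average under 5 FPKM and have no value at that filter. The sign held in each alternative that tested the gene for 16 of the 35. Among them were Mmp16, Mmp11, Plaur, Adam12, Adam19, Adamts15, Mmp9 and Timp3. The groups of these named genes do not overlap. Leaving out a library, or changing the pseudocount, filter or eBayes options, therefore could not turn their sign. The scalings, the removal of chromosome medians and the macrophage covariate did not turn it either, but their shifts were small beside these differences. The covariate moved even Mmp12 only from -0.5683 to -0.5716, so it could hardly turn a sign. Median ratios moved Mmp16 from -2.0988 to -2.0243 and Mmp11 from 1.4316 to 1.5205. With chromosome medians removed, the differences of Adamts15 and Adam12 grew slightly, to 2.15 and 1.49, and those of the other named genes shrank. Outside the fits that leave out a library, 6 of the 35 turned. Mmp3 was 0.0132 under median ratio scaling, 0.0128 under quantile normalization and 0.0233 with chromosome medians removed; Adamts12 was 0.0284, 0.11 and 0.0416 in the same settings. Mmp15 was 0.0601 at a pseudocount of 0.1 and 0.0694 with chromosome medians removed, and in the latter Mmp19 was -0.21, Adamts4 -0.01 and Adam15 0.32.

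With 1 library left out 19 turned. The range was -2.67 to 3.48 for Mmp13, -1.16 to 0.40 for Mmp2, -2.08 to 1.99 for Mmp3, -2.09 to 0.95 for Mmp12, -1.03 to 0.69 for Mmp15, -0.18 to 0.36 for Mmp19, -5.11 to 0.15 for Mmp23, -1.09 to 0.18 for Timp1, -0.57 to 1.21 for Reck and -0.75 to 1.36 for Adamts1. It was -0.0859 to 0.23 for Adamts4, -0.16 to 1.24 for Adamts5, -1.38 to 0.83 for Adamts9, -0.47 to 1.74 for Adamts2, -0.67 to 0.58 for Adamts12, -2.47 to 0.33 for Adam8, -0.16 to 0.41 for Adam10, -0.45 to 0.10 for Adam15 and -0.60 to 1.21 for Plat. The cause was not tested. The share of higher genes among all with an unadjusted p under 0.05 was 31.7%; it rose to 43.3% with median ratios, 42.7% with quantiles and 42.4% with chromosome medians removed. Both scalings moved the median of all genes from -0.07 to 0.01. No paired analysis was possible because the labels give the groups no replicate number in common.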
